A study of Homo sapiens with 15 samples.

Results

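The 8 genes MT1E, MT1F, MT1G, MT1L, MT1M, MT1X, MT2A and SLC30A1 were taken by name from the 23368 genes of a read count table of 15 RNA-seq libraries. The first 7 belong to the metallothionein family and SLC30A1 encodes a zinc exporter. The libraries came from 3 breast cancer clones, each grown from 1 sorted cell and carrying FLAG-tagged RBM47, an RNA-binding protein, under a promoter that doxycycline switches on (pRetroX-Tight-Pur). WT6 and WT10 carried wild type RBM47, and MUT3 carried RBM47-I281fs, a truncated form. Each clone gave 5 libraries, at 0, 1, 2.5, 5 and 25 ng/ml doxycycline. Every condition had a single library, so there were no replicates to set a difference against. The study's methods derive WT10 and MUT3 from MDA231-BrM2 and WT6 from CN34-BrM2, both brain metastatic lines, whereas the sample labels give MDA231 for all 3 clones. A difference between WT6 and WT10 therefore holds clone and line together, one between WT10 and MUT3 clone and transgene, and one between WT6 and MUT3 clone, line and transgene.

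Metallothioneins are small, cysteine-rich proteins that bind zinc and copper and buffer the free metal in the cell. Excess zinc activates the transcription factor MTF1, which binds metal response elements in the promoters of metallothionein genes and of SLC30A1. SLC30A1 sits in the plasma membrane and moves zinc out of the cell, so the metallothioneins store the metal and the exporter removes it. Glucocorticoids also induce several metallothioneins, MT2A among them.

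The 7 metallothionein genes lie together on chromosome 16, in this order on hg19. MT2A spans 56642496 to 56643409, MT1L 56651475 to 56652592, MT1E 56659387 to 56661024, MT1M 56666571 to 56667893, MT1F 56691643 to 56694610, MT1G 56700642 to 56701977 and MT1X 56716382 to 56718108. Only MT1G is on the minus strand of these 7. MT1L is annotated as a transcribed pseudogene and the others as protein coding. SLC30A1 lies on chromosome 1, from 211744910 to 211752503, minus strand. The metallothionein transcripts are short, from 186 nt for MT1L and 398 nt for MT1M to 746 nt for MT1E, and that of SLC30A1 measures 5893 nt.

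Promoters of 3 members, MT2A, MT1X and SLC30A1, were matched in RefSeq (GRCh38.p14) and are shown with the core of the metal response element, the motif that MTF1 binds. Each sequence is the 250 bases before the annotated start, 5′ to 3′ on the strand of the gene. Capitals mark this core, searched as TGCACNC and TGCGCNC on both strands, and no pair of matches overlapped. The positions are chr16:56608334-56608583 for MT2A (plus strand), chr16:56682220-56682469 for MT1X (plus strand) and chr1:211579162-211579411 for SLC30A1 (minus strand).
MT2A: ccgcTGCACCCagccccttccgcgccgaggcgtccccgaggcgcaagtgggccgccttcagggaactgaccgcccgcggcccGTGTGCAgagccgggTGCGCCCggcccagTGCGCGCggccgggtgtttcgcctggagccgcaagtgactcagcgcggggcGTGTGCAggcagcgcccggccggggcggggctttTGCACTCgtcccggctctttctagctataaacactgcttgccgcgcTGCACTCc
MT1X: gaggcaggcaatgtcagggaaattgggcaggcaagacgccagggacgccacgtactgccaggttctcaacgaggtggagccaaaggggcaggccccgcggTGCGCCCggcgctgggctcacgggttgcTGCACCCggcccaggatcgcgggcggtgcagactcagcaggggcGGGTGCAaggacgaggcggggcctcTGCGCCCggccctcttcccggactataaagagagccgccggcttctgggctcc
SLC30A1: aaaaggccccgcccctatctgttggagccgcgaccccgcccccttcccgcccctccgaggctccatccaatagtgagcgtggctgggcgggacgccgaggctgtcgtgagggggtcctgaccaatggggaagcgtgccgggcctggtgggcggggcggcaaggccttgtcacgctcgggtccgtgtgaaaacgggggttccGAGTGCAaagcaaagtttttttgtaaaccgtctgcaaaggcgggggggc
The MT2A sequence held 7 matches, 5 of them on the strand of the gene, spread from base 246 to base 2 before the start. MT1X held 4, between bases 150 and 47. SLC30A1 held 1, on the opposite strand, at bases 49 to 43. Of all 35116 RefSeq promoter windows of this length, 24.8% held at least 1 match, 0.370% at least 4 and 0.0313% at least 7. A match describes the letters and does not show that a factor binds there.

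Between 14955172 and 44771871 reads fell on genes in each library (median 18152381). The authors divided the reads of each library by its DESeq size factor, and the resulting normalized count is the unit of all levels here. RBM47 checks the induction. Its normalized count in WT6 was 258, 3137, 8094, 3966 and 10425 in order of dose, so the library at 5 ng/ml held less RBM47 mRNA than that at 2.5 ng/ml. In WT10 it climbed from 168 to 19877 and in MUT3 from 73.8 to 22084, in the order of the doses. Vimentin, CD44 and keratins 8, 18 and 19 were detected in every library, and of 6 markers of blood, endothelium, liver and astrocytes CD3E was at 0 in all libraries. The summed normalized count of those 6 markers was 119 to 148 in WT6, 36.95 to 89.8 in WT10 and 47.5 to 104 in MUT3. Keratin 7 separated the clones, at 41311 to 72761 in WT6, 99.3 to 176 in WT10 and 15.01 to 25.1 in MUT3. The part of these markers in the differences between clones was not tested.

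MT2A, a widely expressed metallothionein, was by far the most abundant member. Per kilobase of transcript, its median level over the 5 libraries of a clone was 137381 normalized counts in WT6, 46982 in WT10 and 48620 in MUT3. MT1E came next, with 11841, 2898 and 3545 per kilobase in WT6, WT10 and MUT3. MT1X followed at 2992, 2091 and 2755. The ranges of MT1E and MT1X met in WT10, where the lowest MT1E library had 2664 and the highest MT1X library 2670 per kilobase, and were apart in the other clones. Below these 3 genes the order differed between the clones. In MUT3 and WT10, MT1F came next, with medians of 680 and 238 per kilobase, ahead of SLC30A1 with 41.8 and 51.7. In WT6, SLC30A1 came next at 98.8, followed by MT1F at 77.5 per kilobase, and the MT1F range of 28.4 to 267 enclosed that of SLC30A1. MT1G had medians of 42.8, 15.2 and 16.2 per kilobase in WT6, WT10 and MUT3.

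**Figure D1:**
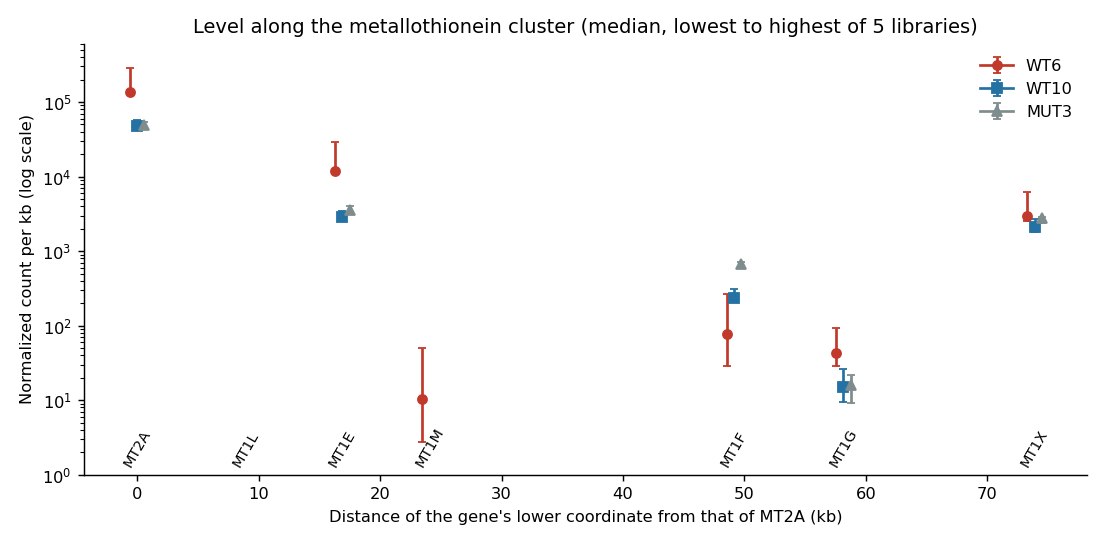
Level of the metallothionein genes by position in the chromosome 16 cluster. The x axis is the distance from MT2A in kilobases and the y axis the normalized count per kilobase on a log scale, with points for the median of 5 libraries of a clone and bars from the lowest to the highest. MT1L, and MT1M in WT10 and MUT3, include libraries at 0 and are not drawn. MT2A and MT1E are highest in WT6, MT1F is highest in MUT3, and the MT1X values lie close together apart from the upper end in WT6.

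Together the 7 metallothioneins took 0.305% to 0.621% of the reads on genes in WT6 libraries, 0.121% to 0.143% in WT10 and 0.113% to 0.138% in MUT3. Every WT6 library exceeded every library of the other clones in this share of the reads on genes. MT2A alone made up 79.6% to 86.8% of the metallothionein reads.

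The members of the family overlap little in sequence at read length. In canonical transcripts of GENCODE, 75-nt windows found unchanged in another metallothionein gene made up 8.18% of MT1X, 6.55% of MT1G and 1.64% of MT1E, and none of MT1F, MT1L, MT1M and MT2A. Read counts could thus be exchanged between paralogs over a small part of MT1X, MT1G and MT1E. MT1L and MT1X each share ground with another gene annotated on the same strand.

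Levels without doxycycline were compared between clones as the intercepts of the linear model that also gives the dose slopes. This model (limma) was fitted on log2(normalized count + 1) of 12644 genes whose mean reached 10 normalized counts in all 3 clones, among them 5 members (MT1E, MT1F, MT1X, MT2A and SLC30A1). MT1G, MT1L and MT1M fell under this limit. A gene was called at a Benjamini-Hochberg adjusted p under 0.05 over all genes tested. In bulk RNA, fewer cells with a transcript and less of it per cell cannot be told apart.

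WT6 had more MT2A, MT1E and SLC30A1 and less MT1F than either of the other clones. Untreated WT6 held 55090 normalized counts of MT2A, against 22768 in WT10 and 19727 in MUT3. For MT1E the untreated values were 8607, 2566 and 2771. SLC30A1 stood at 582 in untreated WT6, 304 in WT10 and 234 in MUT3. Over all doses the lowest WT6 library exceeded the highest library of the other clones for each of these genes.

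On the log2 scale MT1E was higher in WT6 than in WT10 by 1.73 (SE 0.23, adjusted p 1.29e-05), MT2A by 1.33 (SE 0.23, adjusted p 0.00013) and SLC30A1 by 0.98 (SE 0.14, adjusted p 2.59e-05). Against MUT3 the WT6 levels were higher by 1.49 for MT1E (adjusted p 4.76e-05), 1.40 for MT2A (adjusted p 7.28e-05) and 1.43 for SLC30A1 (adjusted p 7.01e-07). In each of these comparisons 3 of the 5 fitted members were thus higher and 1 lower in WT6. Of all genes tested, 30.8% were higher and 28.8% lower in WT6 than in WT10, and 31.5% were higher and 30.2% lower in WT6 than in MUT3. The median difference over the 5 members was 0.98 against WT10 and 1.40 against MUT3, and over all genes 0.03 and 0.02. MT1X did not pass the test in either comparison, with differences of 0.01 (SE 0.23) and −0.14 (SE 0.23). With length and GC trends removed its fitted level was higher in WT6 than in WT10 by 0.33 (adjusted p 0.0103) and than in MUT3 by 0.33 (adjusted p 0.00963). That removal acts on each library's departure from the mean of its clone, so these are not differences between untreated libraries. Untreated MT1X stood at 1209 normalized counts in WT6, 1079 in WT10 and 1115 in MUT3. Without the WT6 libraries at 5 and 25 ng/ml MT1X was higher in WT6 than in WT10 by 0.23 (adjusted p 0.03).

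MT1F went the other way. Its normalized count in untreated cells was 12.1 in WT6 (95% Poisson counting interval 6.02 to 21.6), 105 in WT10 (85.1 to 128) and 280 in MUT3 (245 to 319). Such intervals cover counting error only. The log2 difference, WT6 minus WT10, was −2.79 (SE 0.37, adjusted p 9.91e-06), and WT6 minus MUT3 gave −4.39 (SE 0.34, adjusted p 3.21e-08). MT1F also separated WT10 and MUT3, the clones of 1 parental line. The 5 WT10 libraries ran from 88.8 to 133 and the 5 MUT3 libraries from 249 to 307, without overlap. The fitted difference, WT10 minus MUT3, was −1.61 (SE 0.23, adjusted p 0.00013). For MT1E and MT1X, which lie on either side of MT1F in the cluster, the same difference was −0.24 (SE 0.23, adjusted p 0.476) and −0.15 (SE 0.24, adjusted p 0.668), and for MT2A it was 0.07 (SE 0.23, adjusted p 0.835).

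SLC30A1 was higher in WT10 than in MUT3 by 0.45 (SE 0.16, adjusted p 0.0423), at 277 to 341 normalized counts against 234 to 254. Leaving out single libraries ended this call in 10 of 15 cases, WT6 at 1 ng/ml, all WT10 libraries but the untreated one and all MUT3 libraries, with adjusted p between 0.0103 and 0.202 over the 15 fits. In WT10 against MUT3, 14.3% of all genes were called higher and 13.9% lower, and 1 member was called in each direction.

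The response to doxycycline was tested as the slope of each clone on log2(dose + 1). In WT6, MT1E, MT1F, MT1X and MT2A rose, and for MT1E, MT1X and MT2A the step lay between 2.5 and 5 ng/ml. MT2A stood at 55090, 54896 and 50949 normalized counts at 0, 1 and 2.5 ng/ml, then at 114452 and 81699 at 5 and 25 ng/ml. MT1E had 8607, 8447 and 8833 at the lower doses, followed by 21558 and 18309. MT1X went from 1209, 1116 and 1036 to 2478 and 2437. Both MT2A and MT1E were higher at 5 than at 25 ng/ml.

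MT1F had the steepest rise of the 5 fitted members. Its values in WT6 were 12.1, 32.9, 15.3, 54.5 and 113 in order of dose, from 11 reads in the untreated library to 91 reads at 25 ng/ml. The value at 25 ng/ml (91.3 to 139 by counting interval) reached the range of WT10, whose library at that dose held 133 (111 to 158). MT1G had 17.5, 15.4 and 11.9 at the lower doses and 36.8 and 38.6 at the upper doses, on 14 to 31 reads a library. MT1M was nearly silent, with 1.10, 4.12, 2.56, 5.45 and 19.9, and the last value rests on 16 reads (11.4 to 32.4 by counting interval). MT1L had 1 read in the 5 WT6 libraries.

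**Figure D2:**
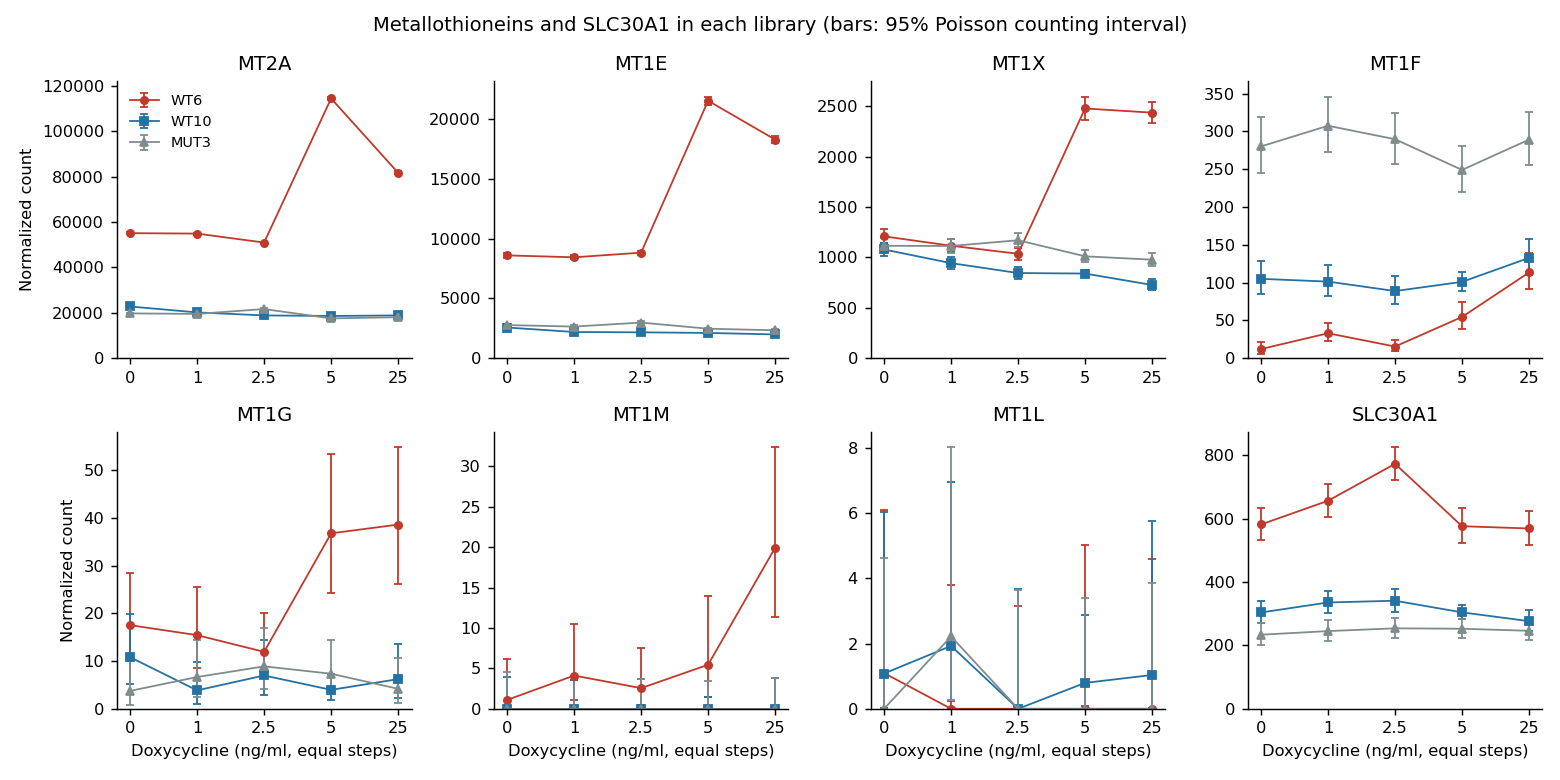
Normalized counts of the 8 genes in each of the 15 libraries, by doxycycline dose in equal steps (x axis, ng/ml). Each panel has its own y axis from 0, lines join the 5 libraries of a clone and bars give the 95% Poisson counting interval. In WT6, MT2A, MT1E, MT1X and MT1G step up between 2.5 and 5 ng/ml, MT1F climbs to 113 at 25 ng/ml, and SLC30A1 peaks at 773 at 2.5 ng/ml.

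The WT6 slope in log2 per unit of log2(dose + 1) was 0.65 for MT1F (SE 0.09, adjusted p 7.61e-05), 0.29 for MT1E (SE 0.07, adjusted p 0.00174), 0.27 for MT1X (SE 0.06, adjusted p 0.00162) and 0.17 for MT2A (SE 0.06, adjusted p 0.0327). Thus 4 of 5 fitted members rose with dose in WT6, where 29.2% of all genes tested rose and 28.3% fell. The median slope of the 5 members was 0.27, and over all genes it was 0.01, with a 10th to 90th percentile from −0.20 to 0.23. SLC30A1 had a slope of −0.03 (SE 0.04, adjusted p 0.535). Its WT6 levels were 582, 657, 773, 576 and 569 in order of dose, highest at 2.5 ng/ml, where the counting interval was 724 to 825.

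Markers of the epithelial and mesenchymal state moved in the same libraries. Of all genes tested, 29.2% rose with dose in WT6 and 28.3% fell. Keratins 7, 8, 18 and 19 rose with dose in WT6, with slopes of 0.18 for KRT7, 0.26 for KRT8, 0.29 for KRT18 and 0.32 for KRT19, and EPCAM had 0.09 (adjusted p 0.0634). CD44 fell (slope −0.12, adjusted p 0.000471) and VIM had a slope of 0.00. All 4 keratins were still called with length and GC trends removed (0.05 to 0.17), as was CD44 (−0.04, adjusted p 0.0313), and VIM was then called lower (−0.07, adjusted p 0.00132). In that fit 3261 of 12033 genes rose in WT6 and 3798 fell. In WT10, where 20.0% of all genes had a slope in either direction, KRT8 and KRT18 rose with dose. KRT7, KRT19 and EPCAM were not called there (slopes 0.15, 0.02 and −0.04). With the trends removed KRT7 rose in WT10 as well (0.14, adjusted p 0.0088), and EPCAM (−0.08, adjusted p 0.0476) and VIM (−0.06, adjusted p 0.0107) fell. The part of these markers in the metallothionein slopes was not tested.

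The metallothionein calls rested on the WT6 libraries at 5 and 25 ng/ml. Without both of them no member was called, and the slopes were 0.02 for MT1E, 0.18 for MT1F, −0.12 for MT1X and −0.06 for MT2A. Of all 12644 genes tested, 130 rose and 52 fell in that fit, against 29.2% and 28.3% with all libraries. WT6 at 2.5 ng/ml had more RBM47 mRNA than at 5 ng/ml, and its MT2A, MT1E and MT1X levels were those of the lower doses. With log2 RBM47 in place of the dose, 0 members were called in WT6, and of all 12644 genes tested 2 rose and 0 fell. The MT2A call alone was lost without the untreated WT6 library (adjusted p 0.09) or without WT6 at 1 ng/ml (adjusted p 0.073).

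The same WT6 libraries differed from the untreated one by transcript length. Among 85 other genes with transcripts of up to 500 nt, the median log2 change was 1.10 at 5 ng/ml and 0.85 at 25 ng/ml, against 0.05 at 1 ng/ml and 0.03 at 2.5 ng/ml. The quintile of genes with the longest transcripts had medians of −0.42 and −0.46 at 5 and 25 ng/ml. The metallothioneins changed over the same steps by 1.05 and 0.57 for MT2A, 1.04 and 1.01 for MT1X, 1.32 and 1.09 for MT1E, and 2.09 and 3.13 for MT1F. MT2A and MT1X therefore lay within the 10th to 90th percentile of the other short transcripts (−0.23 to 1.47 at 5 ng/ml and −0.28 to 1.59 at 25 ng/ml), and MT1F lay above it at both doses. In WT10 and MUT3 the median change of the 85 genes stayed between −0.12 and 0.15 at every dose.

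**Figure D3:**
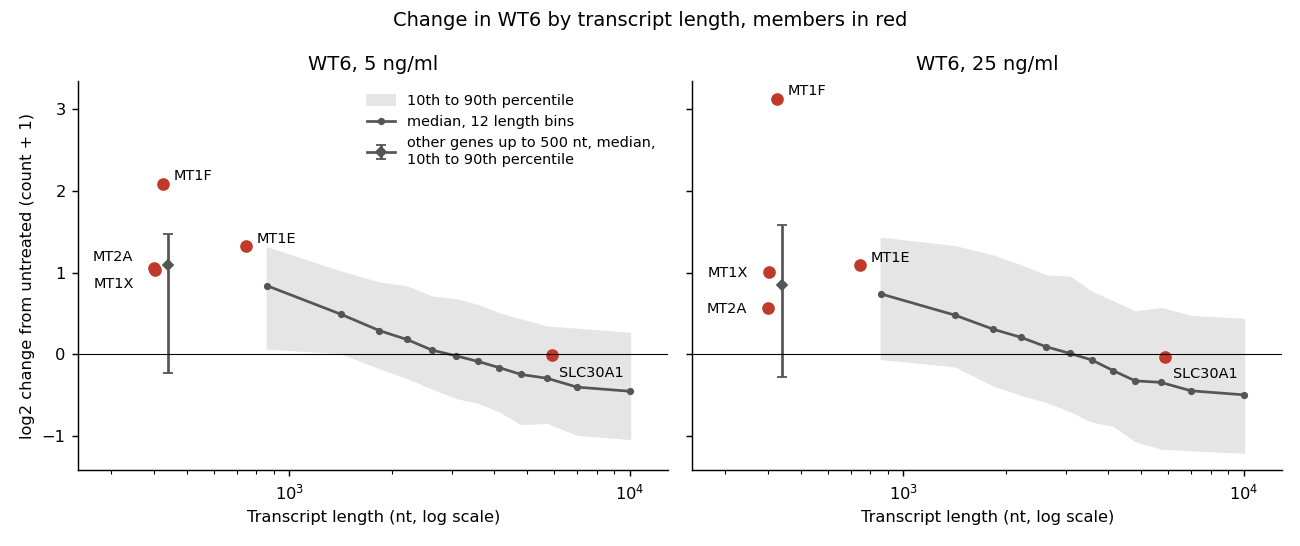
Change from untreated in WT6 at 5 ng/ml (left) and 25 ng/ml (right) by transcript length on a log scale. The grey line and band show the median and the 10th to 90th percentile of the 12033 fitted genes with a known length in 12 bins, the diamond and its bar show the 85 other genes of up to 500 nt, and red points are the 5 fitted members. Short transcripts sit above 0 and long ones below, MT2A and MT1X lie within the bar of the other short genes, and MT1F lies above it.

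Once each library's trends with GC content and transcript length had been taken out, MT1F kept a WT6 slope of 0.46 (SE 0.08, adjusted p 0.000311). MT1E then had 0.11 (SE 0.03, adjusted p 0.0118) and MT1X 0.07 (SE 0.03, adjusted p 0.0283). MT2A turned to −0.04 (SE 0.03, adjusted p 0.211) and was no longer called. SLC30A1, a long transcript, turned to 0.06 (SE 0.02, adjusted p 0.0322). With the trends removed, 27.1% of 12033 genes rose with dose in WT6, and 4 members did (MT1F, MT1E, MT1X and SLC30A1). In these values MT1F alone exceeded the upper decile of all genes, 0.19.

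**Figure D4:**
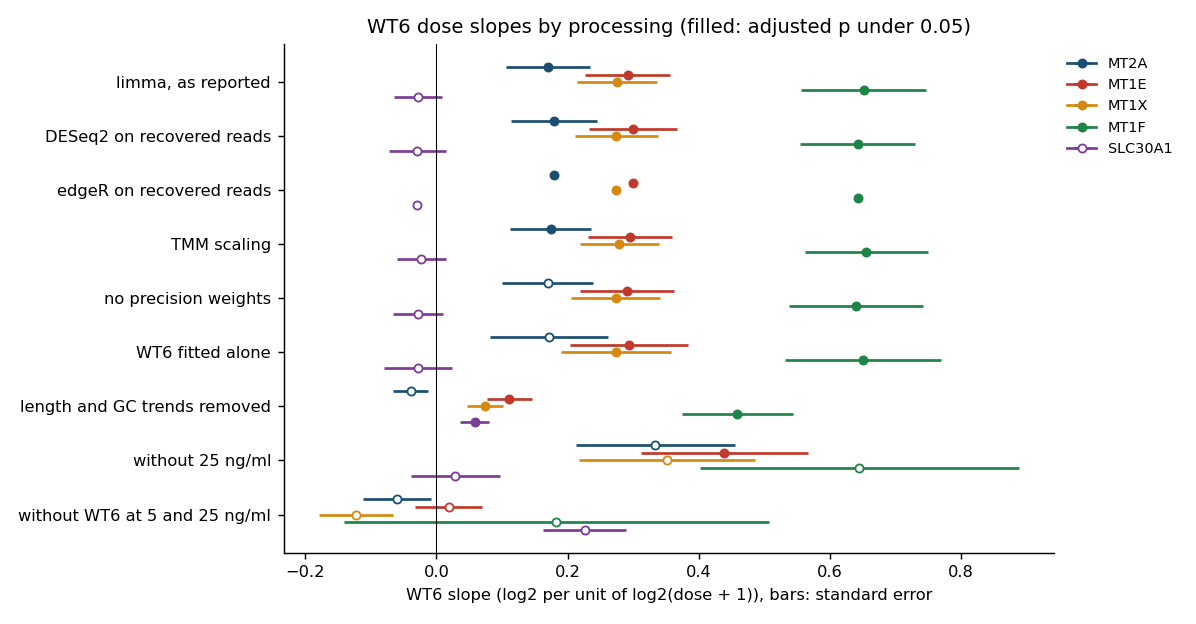
WT6 dose slopes of the 5 fitted members under 9 ways of processing (y axis), in log2 per unit of log2(dose + 1) on the x axis. Points are estimates and bars standard errors, which edgeR does not give, and filled points passed an adjusted p of 0.05. When length and GC trends are removed the metallothionein slopes are lower, MT2A at −0.04, and SLC30A1 moves from −0.03 to 0.06 and is filled. Without the WT6 libraries at 5 and 25 ng/ml no point is filled, and of all 12644 genes 130 rose and 52 fell.

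WT10, the other wild type clone, showed no rise of metallothioneins. MT2A stood at 22768, 20154, 18836, 18586 and 18840 normalized counts in order of dose. MT1E had 2566, 2190, 2162, 2110 and 1987, and MT1X 1079, 943, 845, 840 and 726. The untreated library was the highest for all 3 genes, and MT1E and MT1X were lower at each higher dose. Their slopes were −0.05 (SE 0.06) for MT2A, −0.07 (SE 0.06) for MT1E and −0.12 (SE 0.07) for MT1X, with adjusted p of 0.604, 0.493 and 0.241. MT1F, at 88.8 to 133, had a slope of 0.08 (SE 0.07), and SLC30A1, at 277 to 341, one of −0.04 (SE 0.04).

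None of the 5 members was called in WT10, also at an unadjusted p under 0.05 and also by edgeR and DESeq2, where 20.0% of all genes had a slope in either direction. This shared test uses a spread that includes the WT6 libraries. In WT10 fitted alone, where 14.4% of all genes fell, MT1X fell with dose (slope −0.12, adjusted p 0.00774), as did MT1E (slope −0.07, adjusted p 0.0461). With length and GC trends removed, MT1X fell as well (slope −0.16, SE 0.03, adjusted p 0.00151) together with MT2A (slope −0.08, SE 0.03, adjusted p 0.0267). In that fit 20.8% of all genes fell in WT10.

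In MUT3 the levels stayed within narrow ranges, 17508 to 21644 normalized counts for MT2A, 2332 to 2979 for MT1E, 977 to 1170 for MT1X, 249 to 307 for MT1F and 234 to 254 for SLC30A1. The 5 slopes ran from −0.06 to 0.01 and none was called, and none had an unadjusted p under 0.05. Of all genes tested limma called 0% in MUT3, with 295 at an unadjusted p under 0.05, and edgeR called 1 and DESeq2 8. MT1G had 3.75 to 8.90 in MUT3 and 3.86 to 10.8 in WT10, on at most 10 reads a library. MT1M had 0 reads in all 10 libraries of these clones. With 3 reads taken as the limit that a count of 0 allows, MT1M in WT6 at 25 ng/ml was 6.41 times that limit in WT10 and 6.34 times that in MUT3. These ratios leave out the counting error of the WT6 value, which rests on 16 reads (19.9, counting interval 11.4 to 32.4). At the other doses WT6 had at most 4 MT1M reads. MT1L had 2 reads at most in any library, so no level can be given.

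The difference between the slopes was tested directly. MT1F rose more steeply in WT6 than in WT10 by 0.57 (SE 0.12, adjusted p 0.0148), MT1X by 0.39 (SE 0.09, adjusted p 0.0201) and MT1E by 0.36 (SE 0.09, adjusted p 0.0257). The difference for MT2A was 0.22 (SE 0.09, adjusted p 0.094) and for SLC30A1 0.01 (SE 0.06, adjusted p 0.873). Thus 3 of 5 members had a steeper slope in WT6, where 7.28% of all genes did, and the medians of the difference were 0.36 for the members and 0.00 for all genes. No member was called without WT6 at 25 ng/ml or without untreated WT10, only MT1F was called without WT10 at 25 ng/ml, and MT1E was not called without WT6 at 1 ng/ml. Without WT6 at 5 ng/ml MT2A was called as well (adjusted p 0.00638). Of all 12644 genes, 44 had a higher and 29 a lower slope in WT6 without WT6 at 25 ng/ml. Without untreated WT10 these counts were 33 and 26, and without WT10 at 25 ng/ml 974 and 997. Without WT6 at 1 ng/ml they were 410 and 353, and without WT6 at 5 ng/ml 1994 and 1720. With length and GC trends removed, MT1E, MT1F and MT1X were called again, by 0.21, 0.41 and 0.23, and 6.71% of all genes had a steeper slope in WT6.

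The mean wild type slope exceeded that of MUT3 for MT1F by 0.38 (SE 0.08, adjusted p 0.00472), 1 of 5 members, and 10.1% of all genes exceeded it likewise. The MT1F difference was no longer called without WT10 at 25 ng/ml (adjusted p 0.0598) or without MUT3 at 25 ng/ml (adjusted p 0.133), and MT1E was called as well without WT6 at 5 ng/ml (0.15, adjusted p 0.00952). Of all 12644 genes, 356 were called higher and 708 lower without WT10 at 25 ng/ml, and 2 and 1 without MUT3 at 25 ng/ml. Without WT6 at 5 ng/ml these counts were 2325 and 2589. Between WT10 and MUT3 alone no member differed, by limma at an adjusted or an unadjusted p under 0.05 or by edgeR and DESeq2, while limma called 5.62% of all genes. The slope differences of this pair ranged from −0.07 to 0.09.

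Over the 15 libraries, after each clone's mean was subtracted, MT1E followed MT1X (Pearson's r 0.97) and MT2A (r 0.96), and MT1X followed MT2A (r 0.93). MT1F was less close to them (r 0.68 to 0.77), and SLC30A1 ran against all 4 (r −0.50 to −0.45). All these values include the WT6 libraries at 5 and 25 ng/ml. The genes most like MT2A by this measure encode ribosomal proteins, RPL18 (r 0.983), RPS9 (r 0.982), RPL35 (r 0.980), RPS3 (r 0.978) and RPL12 (r 0.978), on chromosomes 19, 9 and 11. Those most like SLC30A1 were LPP (r 0.849), ZNF792 (r 0.846), ZNF185 (r 0.839), PRMT10 (r 0.832) and SH3D19 (r 0.823), with transcripts of 3461 to 18317 nt.

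Other genes of the cluster were nearly silent, except MT1A. MT1B, MT1H, MT1DP, MT1IP, MT1JP, MT3 and MT4 had at most 3 reads in any library. MT1A stood at 55.9, 41.2, 46.9, 73.6 and 95.9 normalized counts in WT6 and rose with dose there (slope 0.23, adjusted p 0.0101). In WT10 its values were 60.6, 57.9, 41.9, 36.95 and 35.2 (slope −0.19, adjusted p 0.121). With length and GC trends removed, MT1A had a slope of 0.02 in WT6 (adjusted p 0.832), no longer called, and fell with dose in WT10 (slope −0.22, adjusted p 0.0389).

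MTF1, the zinc sensor, was higher in WT6 than in WT10 by 0.69 (adjusted p 0.000572) and fell with dose in WT6 (slope −0.12, SE 0.04, adjusted p 0.0158). Its WT6 values were 734, 716, 733, 480 and 541 in order of dose, lower at 5 and 25 ng/ml than at the 3 lower doses. When the same trends were removed the WT6 slope was −0.01 (adjusted p 0.634) and the fall was no longer called. In WT10, MTF1 had a slope of 0.04 (adjusted p 0.521), and with the trends removed it rose (slope 0.06, adjusted p 0.0484).

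Among the other zinc exporters and vesicular transporters, 5 of 9 were tested. Of all genes tested, 29.2% rose and 28.3% fell in WT6. There SLC30A7, which loads zinc into the Golgi, rose (slope 0.10, adjusted p 0.0329), and SLC30A6 (slope −0.08, adjusted p 0.0176) and SLC30A9 (slope −0.13, adjusted p 0.0049) fell. With length and GC trends removed, both falls were no longer called, at −0.0056 for SLC30A6 (adjusted p 0.796) and −0.04 for SLC30A9 (adjusted p 0.125), and the slope of SLC30A7 was 0.21 (adjusted p 2.57e-06). SLC30A7 rose in WT10 too (slope 0.17, adjusted p 0.0052, and 0.16 with the trends removed), where 20.0% of all genes had a slope in either direction. With the trends removed SLC30A5 fell in WT10 (slope −0.05, adjusted p 0.0444), as did 20.8% of all genes.

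Of 12 tested zinc importers 4 rose and 4 fell in WT6, where 29.2% of all genes rose and 28.3% fell. Among them were SLC39A4, the intestinal zinc importer (slope 0.29, adjusted p 0.00129), and SLC39A10 (slope −0.19, adjusted p 0.000465). With the trends removed 5 rose and 6 fell, as SLC39A9 joined the first and SLC39A1 and SLC39A3 the second, and the slopes of SLC39A4 and SLC39A10 were 0.18 and −0.11. In WT10, where 20.0% of all genes had a slope in either direction, 3 importers rose and 1, SLC39A14, fell (slope −0.13, adjusted p 0.00314). SLC39A3 fell as well with the trends removed (slope −0.06, adjusted p 0.0469).

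Of 7 copper genes 5 rose in WT6, against 29.2% of all genes. The chaperones among them were CCS (slope 0.35, adjusted p 1.76e-05), ATOX1 (slope 0.29, adjusted p 0.00118) and COX17 (slope 0.22, adjusted p 0.0069). The others were SLC31A1 (slope 0.16, adjusted p 0.000189) and SLC31A2 (slope 0.33, adjusted p 5.96e-06). ATP7A, a copper exporter, fell (slope −0.32, adjusted p 0.00117). With the trends removed 4 copper genes rose, where 27.1% of all genes did. The slopes were then 0.18 for CCS, 0.08 for ATOX1, 0.22 for SLC31A1, 0.24 for SLC31A2 and −0.21 for ATP7A. COX17 was no longer called (0.02, adjusted p 0.442). In WT10, where 20.0% of all genes had a slope in either direction, only SLC31A1 (slope 0.22, adjusted p 9.0e-05) and SLC31A2 (slope 0.22, adjusted p 0.000323) were called among the copper genes. The median WT6 slope was 0.22 for the copper genes, 0.03 for the importers and −0.08 for the exporters. With the trends removed these medians were 0.08, −0.04 and −0.007. No gene of these zinc and copper lists was called in MUT3 by limma.

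Glucocorticoid target genes were higher in WT6 at the start. All 5 tested (DUSP1, FKBP5, KLF9, PER1 and TSC22D3) had a higher level in WT6 than in WT10 and in MUT3. Of all genes tested, 30.8% were higher in WT6 than in WT10 and 31.5% were higher than in MUT3. The median differences of the 5 genes were 2.68 and 2.90 on the log2 scale. The smallest difference of a single gene was that of FKBP5, a chaperone of the glucocorticoid receptor, 1.46 against WT10 (SE 0.13, adjusted p 1.92e-07). With dose, 29.2% of all genes tested rose and 28.3% fell in WT6. The 5 glucocorticoid target genes did not move together there, where TSC22D3 rose (slope 0.13, adjusted p 0.00422) and FKBP5 (slope −0.17, adjusted p 0.00111) and PER1 (slope −0.13, adjusted p 0.00466) fell. These 3 calls held with length and GC trends removed, where DUSP1 fell too (slope −0.08, adjusted p 0.00766). In WT10, where 20.0% of all genes had a slope in either direction, DUSP1 (slope 0.21, adjusted p 0.000897) and KLF9 (slope 0.16, adjusted p 0.0214) rose. FKBP5 fell in WT10 (slope −0.17, adjusted p 0.00467), and all these WT10 calls held with the trends removed. The part of the glucocorticoid target genes in the metallothionein levels was not tested.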

How the data were processed

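PolyA RNA of 15 cultures was sequenced as 75-base read pairs. The authors aligned reads by STAR (hg19), ran HTSeq 0.5.4 at default settings and deposited 1 table of normalized signal, the count of reads divided by the DESeq size factor of the library. The annotation is not given in the sources used here, and the strand setting is not named beyond the statement that HTSeq ran at its defaults. Reads assigned to no gene made up 56.5% to 59.6% of the tallied reads of a library. The part of the strand setting in this share was not tested. The strand matters for overlapping genes, and the tally of multiply aligned reads was 0 in each library.

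Whole reads were recovered by dividing each column by the worth of 1 read, and 100% of values came out within 0.01 of a whole number. A count of 3 reads, taken as the limit that a count of 0 allows, equals 1.19 to 4.09 normalized counts. Transcript length and GC content came from GENCODE release 44 on hg19, matched by symbol or synonym for 85.3% of genes. Poisson intervals are at 95%.

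Slopes on log2(dose + 1) and intercepts for each clone were fitted with limma 3.58.1 (R 4.3.3) on log2(normalized count + 1) with vooma weights (6 coefficients, 9 residual degrees of freedom), and p-values were adjusted over 12644 genes. As each condition has 1 library, p-values measure the scatter of single libraries around these lines. Alternatives were edgeR 4.0.16 and DESeq2 1.42.0 on the recovered reads, TMM scaling, other pseudocounts and filters, no weights, removal of length and GC trends by splines with 4 degrees of freedom, each clone alone, other dose scales and leaving out libraries. Descriptive values were computed in Python 3.11.15.

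The genes named are all 8 members, RBM47, the gene lists and, for MT2A and SLC30A1, the 5 genes most correlated with each. Members and lists were chosen with earlier results of these data known. Motifs were described in RefSeq promoters of GRCh38.p14, and no coordinates were moved between builds.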

Additional observations from a re-analysis of the deposited data

Results flagged for a closer look

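The dose slopes of 3 metallothioneins differed between the wild type clones WT6 and WT10, by the test of the difference itself. The WT6 slope exceeded the WT10 slope by 0.36 for MT1E, 0.57 for MT1F and 0.39 for MT1X. For MT1F the mean wild type slope also exceeded that of MUT3, by 0.38. The WT6 slope was above that of WT10 in each fit that left out 1 library, from 0.32 to 0.51 for MT1E, 0.50 to 0.70 for MT1F and 0.37 to 0.47 for MT1X, with adjusted p up to 0.136, 0.136 and 0.115.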

How the results depend on the processing

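Of 1275 values of single members under the alternatives, 1197 stayed as in the main fit, either called or not called in both. A call was lost in 60 and gained in 12, and 6 changed direction with a call in at least 1 of the 2 fits. Values that changed sign without a call in either fit are among the 1197. In WT6, 4 members had a slope, against 0 with log2 RBM47 as the dose, 0 with any doxycycline against none, 1 without the 25 ng/ml libraries, 0 without WT6 at 5 and 25 ng/ml, and 3 to 4 when single libraries were left out. Of all 12644 genes, 2 rose and 0 fell with log2 RBM47, and 0 were called with any doxycycline. Without 25 ng/ml 2416 rose and 2272 fell, and without WT6 at 5 and 25 ng/ml 130 and 52. In WT10 the count was 0, and 2 with length and GC trends removed, in each clone fitted alone and without WT6 at 5 and 25 ng/ml. The WT6 to WT10 difference held 3 members, 0 with the dose in ng/ml, with log2 RBM47, with any doxycycline, without 25 ng/ml and without WT6 at 5 and 25 ng/ml, and 0 to 4 on leaving out single libraries. Of all 12644 genes, 97 were called higher and 125 lower with the dose in ng/ml, and 0 with log2 RBM47 or any doxycycline. Without 25 ng/ml the counts were 7 and 0, and without WT6 at 5 and 25 ng/ml 3 and 3. Mean wild type against MUT3 gave 1 member, 0 without weights, with log2 RBM47, with any doxycycline, without 25 ng/ml and without WT6 at 5 and 25 ng/ml, and 0 to 2 on leaving out single libraries. Of all 12644 genes, 1130 were called higher and 1585 lower without weights, and 0 with log2 RBM47 or any doxycycline. Without 25 ng/ml the counts were 1 and 0, and without WT6 at 5 and 25 ng/ml 668 and 927. WT10 against MUT3 gave 0 slopes, and 1 (MT1X, −0.14) with trends removed. The level of WT10 against MUT3 gave 2 members, 1 without a filter, 1 without 25 ng/ml and 1 to 2 on leaving out single libraries, and MT1E was called in addition without WT6 at 5 and 25 ng/ml (−0.23, adjusted p 0.0224). The 6 changes of direction came without WT6 at 5 and 25 ng/ml or with trends removed. Without those libraries they were the WT6 slopes of MT1X (−0.12) and MT2A (−0.060) and the WT6 to WT10 difference of MT1X (−0.0058). With trends removed they were the WT6 slopes of MT2A (−0.039) and SLC30A1 (0.059) and the MT1X level of WT6 against MUT3 (0.33). The causes were not tested. edgeR, DESeq2, TMM scaling, both other pseudocounts and the filter on the overall mean changed no call among the fitted members. No paired analysis was possible because each condition has 1 library and the labels number no replicates. MT1G, MT1L and MT1M are limited by depth.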
